A study of Arabidopsis thaliana with 24 samples.

Results

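Expansins and xyloglucan endotransglucosylases/hydrolases (XTHs) are 2 groups of secreted proteins that loosen or remodel the plant cell wall. Here they are represented by 31 genes of the 16552 genes that could be tested on the array, chosen by their names alone: 13 alpha-expansins (EXPA), 5 beta-expansins (EXPB), 3 expansin-like A genes (EXLA), 1 expansin-like B gene (EXLB) and 9 XTH genes. The other members of these families are not analysed here, because the platform table pairs a single gene name with only part of the probe sets.

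The primary wall of a growing plant cell is a network of cellulose microfibrils tied together by xyloglucan and embedded in pectin. Expansins let wall polymers slip past each other without cutting them, and alpha-expansins act best when the wall is acidified, which is how auxin and related growth signals extend cells. XTH proteins cut xyloglucan chains and rejoin the ends to other chains, or in some members only hydrolyse them. Expansin-like A and B proteins share the expansin fold, but a wall-loosening activity has not been established for them.

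The samples were 24 Affymetrix arrays, in 8 groups of 3, hybridised with RNA of 3-week-old soil-grown Arabidopsis thaliana in the Col-0 background. The groups were the double mutant brm-1 hd2c-3, the single mutants brm-1 and hd2c-3, and the wild type (WT), each taken after 1 h at 38 °C (heat) or without heat (control). hd2c-3 is an allele of HD2C, a plant-specific histone deacetylase, and brm-1 an allele of BRAHMA (BRM), the ATPase of a SWI/SNF chromatin remodelling complex. The platform table pairs no probe set with the name of BRM or HD2C, alone or among several names, and the transcripts of the mutated genes were not analysed here.

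The labels name no organ. RCA, the Rubisco activase of green tissue, gave a brighter signal than 99.4% of probe sets (log2 intensity 10.9). The root hair expansins EXPA7 and EXPA18 and the pollen tube pectin methylesterase VGD1 were dim (2.22, 1.92 and 1.50). RCA was the only listed leaf marker among the genes tested, and EXPA7, EXPA18 and VGD1 were the only listed root, flower and pollen markers. None of the listed xylem markers is named in the platform table, so they were not analysed here. A lower signal in these bulk samples can come from fewer cells of a type or from less RNA per cell, and the 2 cannot be told apart. Replicates of a group correlated at 0.981 to 0.993 over all probe sets. According to the study's design text, replicates were picked because some marker genes behaved alike in them, so replicates may differ less here than unselected plants would.

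Intensities are on the log2 scale, where a difference of 1 is 2-fold, and a difference is given as ± its standard error from limma (3 arrays in each group, spread pooled over all 24 arrays). A gene was called higher or lower when its p, adjusted over all 16552 genes by the method of Benjamini and Hochberg, was under 0.05. Lack of overlap between 2 groups was common and is not a call. In WT all heat arrays lay above all control arrays for 2553 of the 16552 genes and below for 2676. For brm-1 against WT in control the numbers were 1879 and 1967. Of the 31 genes, 16 were called in at least 1 of 17 comparisons, against 37.6% of all genes, and 15 in none. Brightness went with these calls: 11 of the 14 genes brighter than the median probe set (3.55) were called somewhere, and 5 of the 17 dimmer ones. Differences of dim probe sets are compressed by background signal, and the part of brightness in the calls was not tested.

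Heat lowered more of the 31 genes than it raised in every genotype, as it also did over all genes. In WT 1 gene was called higher and 3 lower, and the 12.9% called compare with 13.3% of all genes. In hd2c-3 the numbers were 1 and 7 (25.8%, against 20.0% of all genes), in brm-1 1 and 7 (25.8%, against 15.8%) and in brm-1 hd2c-3 3 and 8 (35.5%, against 21.5%). The genes called lower made up 9.68% of the 31 in WT, 22.6% in hd2c-3 and in brm-1 and 25.8% in brm-1 hd2c-3, where 7.48%, 11.2%, 8.51% and 12.1% of all genes were called lower. The share called in WT was near that of all genes, that in hd2c-3 was not far above it, and none of these shares was tested against that of all genes. In all, 14 of the 31 genes (45.2%) were called with heat in some genotype, against 33.9% of all genes. The median difference of the 31 genes lay between -0.12 and -0.08 in the 4 genotypes, where that of all genes lay between 0.003 and 0.054. The number in brm-1 was the least stable. It was 4 (12.9% of the 31), with 1 higher and 3 lower, when all arrays were given the same median, and 3 to 5 without any 1 of its 6 arrays, so no excess over all genes is read from it. In brm-1 hd2c-3 the number was 8 to 11 without any 1 of its 6 arrays. By the probe set chosen for each gene, all of the called alpha-expansins were lower after heat. The called genes that were higher were EXLA1, EXLA2 and XTH19. The other probe set of the alpha-expansin EXPA20 was called higher with heat in WT, brm-1 and brm-1 hd2c-3 (1.07, 0.72 and 0.92). EXPA20 therefore has no settled direction.

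EXPA16 (AT3G55500), an alpha-expansin, had the largest fall of the 31 genes in every genotype. Its log2 intensity was 5.05, 5.52 and 5.52 in WT heat, against 7.09, 7.00 and 7.02 in WT control. In brm-1 it was 4.86, 4.52 and 4.42 in heat, against 6.33, 6.28 and 6.80 in control. In hd2c-3 it was 5.14, 5.47 and 5.62 in heat, against 6.86, 6.68 and 7.22 in control. The heat and control arrays did not overlap in these genotypes, nor in brm-1 hd2c-3, where heat gave 5.32, 4.81 and 5.82 and control 6.40, 6.27 and 6.56. The difference was -1.67 ± 0.21 in WT (3.19-fold lower, adjusted p = 7.83e-06), -1.51 in hd2c-3 (adjusted p = 1.38e-05), -1.87 in brm-1 (adjusted p = 1.01e-06) and -1.09 in brm-1 hd2c-3 (adjusted p = 0.000486).

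EXPA4 (AT2G39700) was the other gene called lower in all 4 genotypes. These 2 are 6.45% of the 31 genes, and 3.58% of all genes were called lower in all 4. It had 3.78, 3.93 and 3.98 in WT heat, against 4.47, 4.32 and 4.49 in WT control (-0.53 ± 0.13, adjusted p = 0.00822). The fall was -0.76 in hd2c-3 (adjusted p = 0.000174), -0.67 in brm-1 hd2c-3 (adjusted p = 0.000559) and -0.46 in brm-1 (adjusted p = 0.0184). The call in brm-1 was lost without brm-1 control replicate 2 or 3 or brm-1 heat replicate 1 or 3 (adjusted p 0.0528 to 0.0849).

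EXPB3 (AT4G28250), a beta-expansin, was called lower in WT, hd2c-3 and brm-1 hd2c-3. It had 6.23, 6.32 and 6.22 in WT heat, against 7.01, 7.07 and 6.95 in WT control (-0.75 ± 0.15, adjusted p = 0.00155). The differences were -0.64 in hd2c-3 (adjusted p = 0.00396) and -0.76 in brm-1 hd2c-3 (adjusted p = 0.000748). In brm-1 the arrays did not overlap either, with 6.48, 6.56 and 6.73 in heat and 6.81, 7.21 and 7.02 in control, but the difference of -0.43 was not called (adjusted p = 0.0634). The heat responses of brm-1 and WT differed by 0.33 ± 0.22 (adjusted p = 0.805), so EXPB3 was not shown to respond differently in them.

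EXLA1 (AT3G45970), an expansin-like A gene, went the other way and was the only 1 of the 31 genes called higher after heat in all 4 genotypes (3.23%, against 2.57% of all genes). It had 6.05, 5.92 and 5.38 in WT heat, against 3.45, 4.39 and 4.68 in WT control, where replicate 1 was the lowest. In brm-1 hd2c-3 it had 6.19, 6.48 and 6.79 in heat, against 4.74, 4.27 and 3.53 in control. Every heat array lay above every control array of its genotype. The rise was 1.61 ± 0.29 in WT (3.06-fold, adjusted p = 0.000409), 1.69 in hd2c-3 (adjusted p = 0.000138), 2.31 in brm-1 hd2c-3 (adjusted p = 2.28e-06) and 0.91 in brm-1 (adjusted p = 0.0309). The call in brm-1 was lost without any of brm-1 control replicates 1, 2 and 3 or brm-1 heat replicates 1 and 2 (adjusted p 0.0543 to 0.0967), and the smaller rise there was not shown to differ from that of WT (-0.70 ± 0.40, adjusted p = 0.749). EXLA1 and its neighbour EXLA3 (AT3G45960) lie side by side and are alike in sequence, so signal shared between their probes is possible, although EXLA3 stayed dim in every group (group means 1.36 to 1.87) and was called in no comparison.

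**Figure D1:**
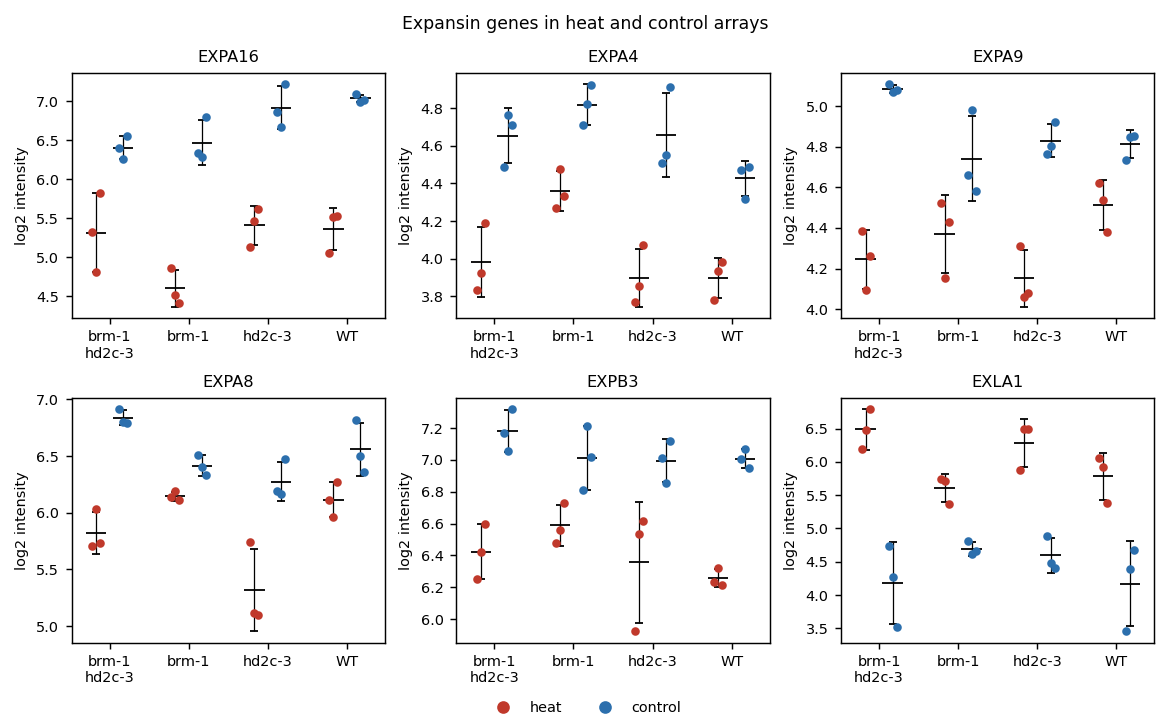
Log2 intensity of EXPA16, EXPA4, EXPA9, EXPA8, EXPB3 and EXLA1 on each array, by genotype, with heat (red) left of control (blue). Points are arrays, black lines group means and bars ± SD (n = 3). EXPA16 is lower in heat in all 4 genotypes and EXLA1 higher, without overlap within a genotype.

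EXPA8 (AT2G40610) and EXPA9 (AT5G02260), a pair of alpha-expansins, were called lower after heat in hd2c-3 and brm-1 hd2c-3, and EXPA9 also in brm-1. EXPA8 had 5.74, 5.12 and 5.10 in hd2c-3 heat, against 6.19, 6.16 and 6.47 in hd2c-3 control (-0.96 ± 0.16, adjusted p = 9.39e-05). In brm-1 hd2c-3 it had 5.70, 6.04 and 5.73 in heat, against 6.91, 6.80 and 6.79 in control (-1.01 ± 0.16, adjusted p = 3.91e-05). It was not called in WT (-0.44, adjusted p = 0.0642) or brm-1 (-0.27, adjusted p = 0.302), although heat and control arrays did not overlap there. The heat response of EXPA8 differed from that of WT by -0.51 ± 0.22 in hd2c-3 (adjusted p = 0.716) and -0.57 ± 0.22 in brm-1 hd2c-3 (adjusted p = 0.263), and neither difference passed the test.

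EXPA9 had 4.38, 4.10 and 4.26 in brm-1 hd2c-3 heat, against 5.11, 5.07 and 5.08 in brm-1 hd2c-3 control (-0.84 ± 0.13, adjusted p = 2.9e-05). In hd2c-3 it had 4.31, 4.06 and 4.08 in heat, against 4.76, 4.80 and 4.92 in control (-0.68, adjusted p = 0.000387). The fall of -0.37 in brm-1 was called narrowly (adjusted p = 0.0478). That call was lost without brm-1 control replicate 1 or 2 or brm-1 heat replicate 2 or 3 (adjusted p 0.0655 to 0.28). It was also lost with equal array medians, with cyclic loess normalization, with an intensity trend in limma's prior and with the replicate number as a block. In WT the difference was -0.30 (adjusted p = 0.136), and the difference of the brm-1 hd2c-3 response from it, -0.54 ± 0.18, was not called (adjusted p = 0.156).

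EXPA15 (AT2G03090), an alpha-expansin, was called lower after heat in the 3 mutants and not in WT. It fell by 1.15 ± 0.22 in brm-1, where it had 4.02, 4.61 and 4.55 in heat and 5.11, 5.50 and 6.02 in control (adjusted p = 0.000586). The falls were smaller in brm-1 hd2c-3 (-0.80, adjusted p = 0.00922) and hd2c-3 (-0.79, adjusted p = 0.0118), and WT had -0.38 (adjusted p = 0.321). The call in brm-1 hd2c-3 was lost without its control replicate 3 or heat replicate 1 (adjusted p 0.0527 and 0.0584), and that in hd2c-3 without its control replicate 1 or heat replicate 1 (adjusted p 0.0648 and 0.0701). No response of EXPA15 was shown to differ from that of WT (-0.77 ± 0.31 in brm-1, -0.41 in hd2c-3 and -0.42 in brm-1 hd2c-3, adjusted p 0.492, 0.868 and 0.679).

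Genes with a call in a single genotype were mostly dim or near the threshold. In brm-1, XTH33 (AT1G10550), a membrane-anchored XTH, differed by -0.61 between heat and control (adjusted p = 0.0477). That call was lost without brm-1 control replicate 1 or any of the brm-1 heat replicates 1, 2 and 3 (adjusted p 0.0701 to 0.352), and with equal array medians, cyclic loess or the intensity trend. EXPA21 (AT5G39260) differed by -0.38 in brm-1 (adjusted p = 0.03), a call lost without brm-1 control replicate 1 or 3 or brm-1 heat replicate 2 or 3 (adjusted p 0.066 to 0.138) and with equal array medians. In brm-1 hd2c-3, XTH21 (AT2G18800) differed by -0.46 (adjusted p = 0.0242), a call lost without control replicate 2 or heat replicate 3 of that genotype (adjusted p 0.109 and 0.204) and with equal array medians. XTH32 (AT2G36870), a bright XTH gene, fell by 0.55 ± 0.12 in hd2c-3 (adjusted p = 0.00228), with 5.44, 5.56 and 5.68 in heat and 6.22, 6.16 and 5.94 in control. Its differences in WT (-0.35), brm-1 (-0.32) and brm-1 hd2c-3 (-0.26) had the same direction without overlap of arrays and were not called (adjusted p 0.0634, 0.085 and 0.16).

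Without heat, 4 of the 31 genes were called higher in brm-1 than in WT, and none lower. Those 4 (EXPA15, EXPB1, EXPA20 and XTH19) are 12.9% of the 31 genes, where 2.22% of all genes were called higher and 4.26% in either direction. In brm-1 hd2c-3 the same comparison called EXPB1, EXPA15 and EXPA20 higher and none lower (9.68%, against 1.53% of all genes higher and 3.12% in either direction). Without any 1 array the number was 3 to 4 in brm-1 and 2 to 3 in brm-1 hd2c-3. With equal array medians it was 3 in each. The calls of XTH19 in brm-1 and EXPA15 in brm-1 hd2c-3 depended on single arrays, and EXPA20 was not called by its other probe set. These shares were not tested against those of all genes. In hd2c-3 limma called 0 of 31 genes in control, where 0.00604% of all genes were called. A single one, XTH18 (0.64 ± 0.30, adjusted p = 1), had an unadjusted p under 0.05. These comparisons share the WT control arrays.

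EXPB1 (AT2G20750), a beta-expansin, separated the genotypes most steadily. In control it had 5.89, 5.59 and 5.64 in brm-1 and 5.75, 5.72 and 5.64 in brm-1 hd2c-3, against 4.50, 4.73 and 4.22 in WT. hd2c-3 had 4.82, 4.51 and 4.62. Every array with brm-1 lay above every array without it. The excess over WT in control was 1.22 ± 0.18 in brm-1 (2.32-fold, adjusted p = 0.00015) and 1.21 ± 0.18 in brm-1 hd2c-3 (adjusted p = 0.000218), while hd2c-3 differed from WT by 0.16 (adjusted p = 1).

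After heat the order of EXPB1 was alike. It had 5.57, 5.29 and 5.31 in brm-1 heat and 4.88, 5.11 and 5.64 in brm-1 hd2c-3 heat, against 4.30, 4.09 and 4.12 in WT heat. The excess over WT was 1.22 ± 0.18 in brm-1 (adjusted p = 0.00013) and 1.04 ± 0.18 in brm-1 hd2c-3 (adjusted p = 0.000435), and hd2c-3, with 4.08, 4.70 and 4.62, differed from WT by 0.30 (adjusted p = 0.503). EXPB1 was not called in the heat response of any genotype (-0.49 to -0.18, adjusted p 0.0549 to 0.535). The difference between the brm-1 and WT heat responses was 0.004 ± 0.25 (adjusted p = 0.998), so the excess in brm-1 was of like size in both conditions within that error. The responses of hd2c-3 and brm-1 hd2c-3 differed from that of WT by 0.14 and -0.17 (adjusted p 0.968 and 0.878).

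EXPA15 was called above WT in control but not in heat. It had 5.11, 5.50 and 6.02 in brm-1 and 5.30, 4.78 and 5.43 in brm-1 hd2c-3, against 4.19, 4.02 and 4.34 in WT, with no overlap. The difference from WT was 1.36 ± 0.22 in brm-1 (2.57-fold, adjusted p = 0.000348) and 0.99 ± 0.22 in brm-1 hd2c-3 (adjusted p = 0.00951). The second call was lost without WT control replicate 2 or brm-1 hd2c-3 control replicate 1 or 3 (adjusted p 0.0542 to 0.0689). After heat EXPA15 had 4.02, 4.61 and 4.55 in brm-1, 4.12, 4.37 and 4.61 in brm-1 hd2c-3, and 3.80, 3.67 and 3.94 in WT. The arrays did not overlap with WT, but the differences of 0.59 in brm-1 (adjusted p = 0.142) and 0.56 in brm-1 hd2c-3 (adjusted p = 0.122) were not called. hd2c-3 differed from WT by 0.34 in control (adjusted p = 1) and by -0.07 in heat (adjusted p = 0.929).

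**Figure D2:**
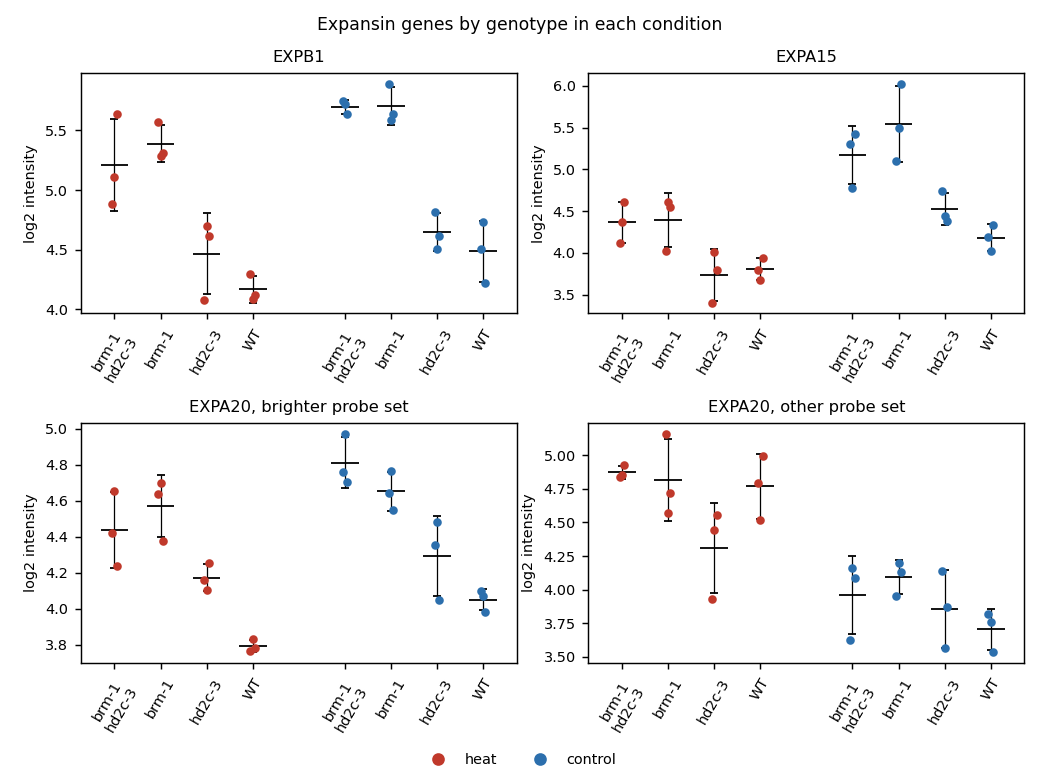
Log2 intensity of EXPB1, EXPA15 and the brighter (by mean over all arrays) and other probe set of EXPA20 on each array, by genotype. The heat groups (red) are on the left of each panel and the control groups (blue) on the right. Points are arrays, black lines group means and bars ± SD (n = 3). EXPB1 is higher in brm-1 and brm-1 hd2c-3 than in WT in both conditions, and the group means of the 2 EXPA20 probe sets differ between heat and control in opposite directions.

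EXPA20 (AT4G38210), an alpha-expansin, is measured by 2 probe sets that disagree. The one called brighter had the higher mean over all arrays, by which it was chosen. Its group mean was the higher one in every control group. After heat the other probe set had the higher mean in every genotype. These means were 4.77 against 3.79 in WT and 4.31 against 4.17 in hd2c-3. In brm-1 they were 4.82 against 4.57, and in brm-1 hd2c-3 4.87 against 4.44. The label is no measure of reliability. The brighter one had 4.64, 4.77 and 4.55 in brm-1 control, against 4.10, 4.07 and 3.98 in WT control. It was called higher than WT in brm-1 (0.60 ± 0.13 in control, adjusted p = 0.00624, and 0.78 ± 0.13 in heat, adjusted p = 0.000491) and in brm-1 hd2c-3 (0.76 in control, adjusted p = 0.001, and 0.65 in heat, adjusted p = 0.0019). The other probe set gave 0.39, 0.05, 0.26 and 0.10 for these comparisons and no call (adjusted p 0.357 to 0.96). With heat the brighter one was called lower in brm-1 hd2c-3 (-0.37, adjusted p = 0.0421), whereas the other was called higher there (0.92 ± 0.19, adjusted p = 0.000873). In WT the other probe set rose by 1.07 ± 0.19 (adjusted p = 0.000376) and in brm-1 by 0.72 (adjusted p = 0.00907), where the brighter one was not called (-0.26 and -0.08, adjusted p 0.237 and 0.787). The direction of EXPA20 with heat is therefore not settled. The call in brm-1 hd2c-3 heat was also lost without control replicate 1 or 2 or heat replicate 1 or 3 of that genotype (adjusted p 0.0709 to 0.208), and with equal array medians, cyclic loess or the intensity trend.

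After heat, brm-1 differed from WT in 4 of the 31 genes, with EXPB1, EXPA20 and EXPA4 higher and EXPA16 lower (12.9%, against 5.10% of all genes). EXPA4 had 4.27, 4.48 and 4.33 in brm-1 heat, against 3.78, 3.93 and 3.98 in WT heat (0.46 ± 0.13, adjusted p = 0.0412). This call was lost without any 1 of the 6 arrays, WT heat replicates 1, 2 and 3 and brm-1 heat replicates 1, 2 and 3 (adjusted p 0.0565 to 0.171), and with the intensity trend. EXPA16, which heat lowered in every genotype, was lower still in brm-1 heat than in WT heat (-0.77 ± 0.21, adjusted p = 0.0332). That call was lost without WT heat replicate 2 or 3 or brm-1 heat replicate 2 or 3 (adjusted p 0.113 to 0.143), and with equal array medians, which left 4 genes higher and none lower in this comparison. In control EXPA16 differed from WT by -0.57 in brm-1 (adjusted p = 0.163) and -0.63 in brm-1 hd2c-3 (adjusted p = 0.131), without overlap and without a call.

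In hd2c-3 heat a single gene, EXPA8, was called against WT heat (3.23% of the 31 genes, against 0.598% of all genes). Its 5.74, 5.12 and 5.10 in hd2c-3 heat lay below the 6.11, 5.96 and 6.27 of WT heat (-0.80 ± 0.16, adjusted p = 0.0152). The call was lost without WT heat replicate 1 or 3 or hd2c-3 heat replicate 2 or 3 (adjusted p 0.0809 to 0.121). EXLA2 in hd2c-3 heat was above WT heat on every array but not called (0.68 ± 0.20, adjusted p = 0.128).

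brm-1 hd2c-3 after heat was higher than WT in 4 of the 31 genes, EXPB1, EXPA20, EXLA2 and XTH19, and lower in none (12.9%, against 9.33% of all genes). EXLA2 (AT4G38400), an expansin-like A gene, had 4.29, 4.38 and 3.87 in brm-1 hd2c-3 heat, against 3.43, 3.29 and 3.12 in WT heat. The difference was 0.90 ± 0.20 (adjusted p = 0.00444). In control brm-1 hd2c-3 had 3.24, 3.33 and 3.28, against 3.36, 3.71 and 4.15 in WT, a difference of -0.46 in the opposite direction that was not called (adjusted p = 0.32). EXLA2 was not called in the single mutants against WT either. In control it differed from WT by 0.31 in hd2c-3 and -0.34 in brm-1 (adjusted p 1 and 0.52). In heat EXLA2 differed from WT by 0.68 in hd2c-3 and 0.39 in brm-1 (adjusted p 0.128 and 0.364).

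EXLA2 was also the only 1 of the 31 genes whose heat response was called different from that of WT, which it was in brm-1 hd2c-3 (3.23%, against 1.47% of all genes). There it rose by 0.90 ± 0.20 with heat (1.87-fold, adjusted p = 0.00176), whereas the difference was -0.46 in WT (adjusted p = 0.151), -0.09 in hd2c-3 (adjusted p = 0.804) and 0.26 in brm-1 (adjusted p = 0.472). The difference between the responses of brm-1 hd2c-3 and WT was 1.36 ± 0.28 (adjusted p = 0.0124), and it was called without any 1 of the 12 arrays involved (highest adjusted p = 0.0492). For brm-1 limma called 0 of 31 genes in the difference of heat responses (0.187% of all genes), with 3 at an unadjusted p under 0.05, EXLA2 (0.72 ± 0.28, adjusted p = 0.469), EXPA15 and XTH19. For hd2c-3 it also called 0 of 31, as for all genes (0%), with 3 at an unadjusted p under 0.05, EXPA8, EXPA9 and EXPA21. EXLA2 differed there by 0.37 ± 0.28 (adjusted p = 0.874).

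XTH19 (AT4G30290), an XTH known mainly from roots, was dim throughout, with a mean of 1.55 over all arrays that only 9.87% of probe sets fell below. It had 2.59, 2.06 and 2.21 in brm-1 hd2c-3 heat, against 1.43, 1.48 and 1.24 in brm-1 heat, 0.92, 1.32 and 1.09 in hd2c-3 heat and 0.95, 1.45 and 1.20 in WT heat. The double mutant was above all other heat arrays. It differed by 1.09 ± 0.23 from WT (adjusted p = 0.0031), by 1.18 from hd2c-3 (adjusted p = 0.00273) and by 0.90 from brm-1 (adjusted p = 0.0234). The last call was lost without brm-1 heat replicate 1 or 3 or brm-1 hd2c-3 heat replicate 1 or 3 (adjusted p 0.0559 to 0.121).

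The heat responses of XTH19 had opposite signs in the genotypes with brm-1. It rose by 0.85 ± 0.23 in brm-1 hd2c-3 (adjusted p = 0.00917) and fell by 0.76 in brm-1 (adjusted p = 0.0258). In WT the difference was -0.07 (adjusted p = 0.921). The brm-1 hd2c-3 and brm-1 responses were not tested against each other. Neither was called different from that of WT (0.92 ± 0.33 and -0.69 ± 0.33, adjusted p 0.203 and 0.634). The call in brm-1 hd2c-3 was lost without its heat replicate 1 (adjusted p = 0.0573), and that in brm-1 without brm-1 control replicate 2 or 3 or brm-1 heat replicate 1 or 3 (adjusted p 0.0529 to 0.223) and with equal array medians. In brm-1 control the 3 arrays were spread widely (1.34, 2.77 and 2.33) and overlapped with WT control (1.18, 1.44 and 1.20). The call there (0.88 ± 0.23, adjusted p = 0.0287) was lost without WT control replicate 1 or 3 or brm-1 control replicate 2 or 3 (adjusted p 0.106 to 0.24), and with equal array medians. XTH18 (AT4G30280), the neighbour of XTH19, is similar to it in sequence, and the probes of the pair may share signal. XTH18 had 2.77, 2.14 and 2.21 in brm-1 hd2c-3 heat, against 1.39, 1.74 and 2.60 in WT heat, and was called in no comparison.

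**Figure D3:**
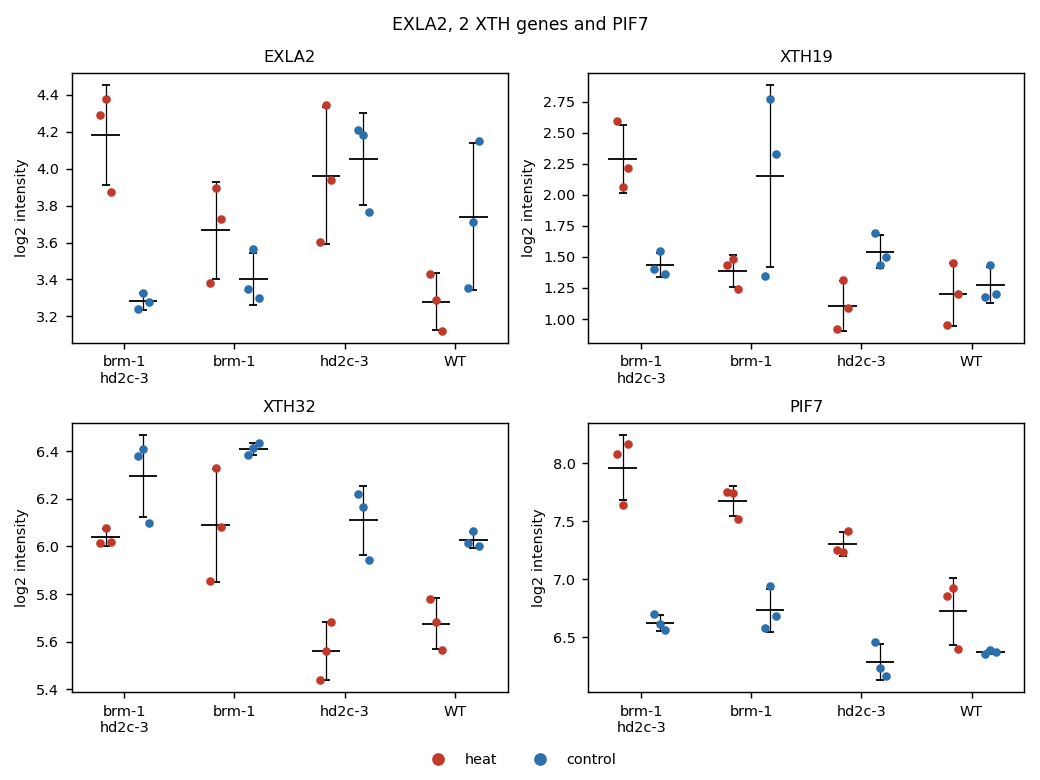
Log2 intensity of EXLA2, XTH19, XTH32 and the growth regulator gene PIF7 on each array, by genotype, with heat (red) left of control (blue). Points are arrays, black lines group means and bars ± SD (n = 3). EXLA2, XTH19 and PIF7 are higher in brm-1 hd2c-3 heat than in WT heat.

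Set against the single mutants, the double mutant had 0 calls against brm-1 and 4 against hd2c-3 in control, and 1 and 4 in heat. Against brm-1 in control limma called 0 of 31 genes (0.0423% of all genes), with 4 at an unadjusted p under 0.05, and in heat it called XTH19 alone (3.23%, against 4.80% of all genes). Against hd2c-3 in control EXPB1, EXPA8 and EXPA20 were called higher and EXLA2 lower (12.9%, against 3.28% of all genes). In heat EXPB1, XTH19 and XTH32 were called higher than in hd2c-3 and EXPB5 lower (12.9%, against 5.03% of all genes). The control count was 2, with 1 higher and 1 lower, under equal array medians, and 1 to 3 without any 1 of the 6 arrays. In heat the counts lay close enough for their order to be unsettled. The count against brm-1 was 2 with cyclic loess or the intensity trend, 3 with the replicate block or the filter on dim probe sets and 0 to 2 without any 1 array, and the count against hd2c-3 was 1 to 4 without any 1 array. Over all genes 794 were called against brm-1 in heat and 833 against hd2c-3. Whether the double mutant differs less from brm-1 than from hd2c-3 over these genes was not tested.

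EXPB1 gave the widest of these differences in control, 1.05 ± 0.18 above hd2c-3 (adjusted p = 0.00106) and -0.003 ± 0.18 from brm-1 (adjusted p = 1). In heat it was 0.75 above hd2c-3 (adjusted p = 0.0136), a call lost without hd2c-3 heat replicate 1 or brm-1 hd2c-3 heat replicate 3 (adjusted p 0.1 and 0.112), and -0.18 from brm-1 (adjusted p = 0.688). EXPA15 differed from hd2c-3 by 0.65 in control and 0.63 in heat, not called (adjusted p 0.135 and 0.104), and from brm-1 by -0.37 and -0.03 (adjusted p 0.961 and 0.974). EXLA2 differed from brm-1 by -0.12 in control and 0.51 in heat, and from hd2c-3 by 0.22 in heat, not called (adjusted p 1, 0.156 and 0.653).

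Of the other calls against hd2c-3, that of XTH19 in heat was kept without any 1 of the 6 arrays (highest adjusted p = 0.0188). The rest were lost when some single arrays were left out. In control EXPA8 had 6.91, 6.80 and 6.79 in brm-1 hd2c-3, against 6.19, 6.16 and 6.47 in hd2c-3 (0.56 ± 0.16, adjusted p = 0.0484). The call was lost without hd2c-3 control replicate 1 or 2 or any of the brm-1 hd2c-3 control replicates 1, 2 and 3 (adjusted p 0.0979 to 0.205), and with equal array medians. The same 5 arrays each removed the call of EXLA2, which had 3.24, 3.33 and 3.28, against 4.21, 4.18 and 3.77 (-0.77 ± 0.20, adjusted p = 0.0296, and 0.0779 to 0.149 without them). EXPA20, by its brighter probe set, was 0.52 higher (adjusted p = 0.0247), a call lost without hd2c-3 control replicate 1 or 3 or brm-1 hd2c-3 control replicate 1 or 2 (adjusted p 0.0572 to 0.158) and with equal array medians.

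In heat XTH32 had 6.01, 6.08 and 6.02 in brm-1 hd2c-3, against 5.44, 5.56 and 5.68 in hd2c-3 (0.48 ± 0.12, adjusted p = 0.0222). The groups did not overlap, and the call was lost without hd2c-3 heat replicate 1 or 2 or brm-1 hd2c-3 heat replicate 2 or 3 (adjusted p 0.0583 to 0.0967). EXPB5 (AT3G60570), a dim beta-expansin, had 2.17, 1.66 and 1.73 in brm-1 hd2c-3 heat, against 2.30, 3.15 and 2.59 in hd2c-3 heat (-0.83 ± 0.20, adjusted p = 0.0131). That call was lost without hd2c-3 heat replicate 2 or brm-1 hd2c-3 heat replicate 2 or 3 (adjusted p 0.0621 to 0.107).

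The 15 genes called in no comparison were EXLA3, EXLB1, EXPA7, EXPA18, EXPA22, EXPA23, EXPA24, EXPA25, EXPB2, EXPB4, XTH16, XTH18, XTH20, XTH26 and XTH29. EXLB1, EXPA25 and XTH16 were brighter than the median probe set and the other 12 dimmer. EXLB1 (AT4G17030) was the steadiest of the bright ones, with group means from 4.92 to 5.26. EXPA21 to EXPA25 are neighbouring genes on chromosome 5, in which EXPA22 to EXPA25 spread widely within groups. EXPA23, for example, had 3.64, 1.97 and 2.87 in brm-1 hd2c-3 heat and 3.95, 2.37 and 3.19 in brm-1 heat. Replicate 1 of brm-1 hd2c-3 heat and replicate 1 of brm-1 heat were each the highest of their group in EXPA22, EXPA23, EXPA24 and EXPA25. These 2 arrays also had the lowest medians over all probe sets of the 24 (3.45 and 3.42) and the highest medians over the 31 genes (3.64 and 3.38), and the part of this in the spread was not tested. Signal shared between these similar copies cannot be separated here.

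**Figure D4:**
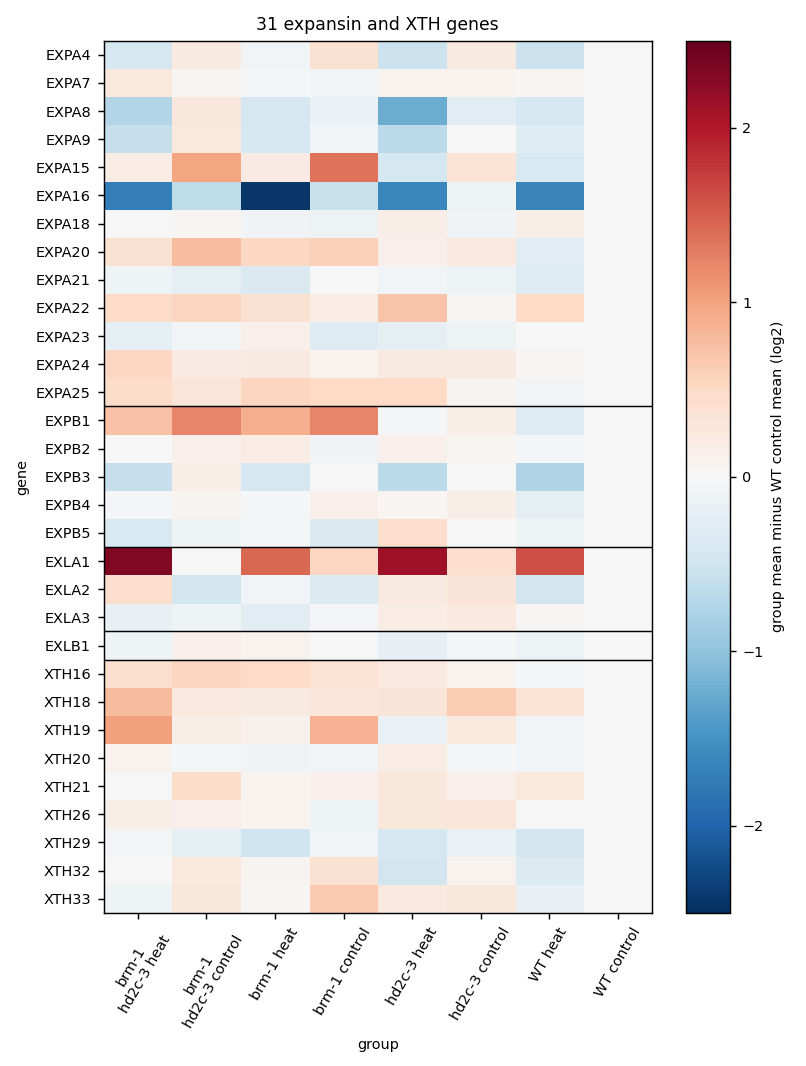
Mean log2 intensity of each of the 31 genes in each group minus its mean in WT control (colour, log2 units), with genes in rows and groups in columns. EXPA16 is below its WT control level in all heat groups and EXLA1 above it, and EXPB1 and EXPA15 are above it in brm-1 control and brm-1 hd2c-3 control.

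Other genes of the wall and of growth control, from a set of lists, were few on the array. Of 5 measured genes of xyloglucan backbone synthesis (the CSLC family of glucan synthases), heat lowered 3 in WT, hd2c-3 and brm-1 hd2c-3 and 2 in brm-1, and raised none. Beside these 3 of 5 genes (2 of 5 in brm-1), heat lowered 7.48% of all genes in WT, 11.2% in hd2c-3, 12.1% in brm-1 hd2c-3 and 8.51% in brm-1. The list's median difference was -0.59 in WT, -0.58 in hd2c-3, -0.42 in brm-1 and -0.62 in brm-1 hd2c-3, beside all-gene medians of 0.003 to 0.054. CSLC04 (the main xyloglucan glucan synthase, also written CSLC4) had 7.64, 7.37 and 7.28 in WT heat, against 8.25, 8.57 and 8.24 in WT control (-0.92 ± 0.15, adjusted p = 0.000171). CSLC5 had 6.42, 6.39 and 6.33 in WT heat, against 7.28, 7.35 and 7.28 in WT control (-0.93 ± 0.14, adjusted p = 4.99e-05). CSLC5 was called lower in the other genotypes too (-1.19 in hd2c-3, -0.99 in brm-1 and -1.03 in brm-1 hd2c-3).

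The third called gene, ATCSLC08, differed by -0.59 in WT, -0.58 in hd2c-3 and -0.62 in brm-1 hd2c-3 (adjusted p 0.0265, 0.0194 and 0.012), calls that each depended on single arrays. They were lost without WT control replicate 1 or 3 or WT heat replicate 2 or 3 (adjusted p 0.0703 to 0.168), without hd2c-3 control replicate 1 or 2 or hd2c-3 heat replicate 2 or 3 (adjusted p 0.0681 to 0.115), and without brm-1 hd2c-3 heat replicate 1 (adjusted p = 0.0625). CSLC04 in brm-1 (-0.49, adjusted p = 0.0273) was lost without brm-1 control replicate 1 or 2 or any of the brm-1 heat replicates 1, 2 and 3 (adjusted p 0.0562 to 0.09), and with equal array medians or cyclic loess. No gene of the list was called between genotypes.

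COB, which encodes the COBRA protein that orients cellulose deposition, fell by 0.61 ± 0.11 with heat in hd2c-3 (adjusted p = 0.000224) and by 0.63 in brm-1 hd2c-3 (adjusted p = 0.000136). In WT it fell by 0.35 (adjusted p = 0.0339), a call lost without WT control replicate 2 or 3 or WT heat replicate 1 or 3 (adjusted p 0.0857 to 0.136). The difference of -0.31 in brm-1 was not called (adjusted p = 0.0594), and that response was not shown to differ from that of WT (0.04 ± 0.15, adjusted p = 0.984). PME61, the single measured gene of pectin modification, was called lower in brm-1 than in WT in control (-0.59 ± 0.14, adjusted p = 0.0163) and higher with heat in brm-1 (0.59 ± 0.14, adjusted p = 0.00566). The first call was lost without WT control replicate 1 or brm-1 control replicate 2 (adjusted p 0.0911 and 0.143), and the second without brm-1 control replicate 2 (adjusted p = 0.058). The 3 genes matched as structural glycoproteins, HRGP1, PRP39 and PRP39-2, were called in no comparison, and the names of the last 2 belong to pre-mRNA processing factors that the prefix caught.

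Of 10 growth regulators, PIF7 (a basic helix-loop-helix factor that drives elongation in shade and warmth) changed most. It had 8.08, 7.64 and 8.16 in brm-1 hd2c-3 heat, 7.75, 7.74 and 7.52 in brm-1 heat and 7.25, 7.23 and 7.42 in hd2c-3 heat, against 6.86, 6.92 and 6.40 in WT heat. All heat arrays of the mutants were above those of WT, but hd2c-3 was not called against WT there (0.57 ± 0.15, adjusted p = 0.0809). PIF7 rose with heat by 1.33 ± 0.15 in brm-1 hd2c-3 (adjusted p = 5.32e-07), by 0.94 in brm-1 (adjusted p = 9.39e-05) and by 1.01 in hd2c-3 (adjusted p = 2.68e-05). The 0.35 in WT was not called (adjusted p = 0.136).

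The heat response of PIF7 in brm-1 hd2c-3 was called different from that of WT (0.98 ± 0.21, adjusted p = 0.0154), as that of EXLA2 was. The call of PIF7 was lost without WT heat replicate 3 or brm-1 hd2c-3 heat replicate 3 (adjusted p 0.0525 and 0.0579). In the single mutants the PIF7 response was not shown to differ from that of WT. The differences were 0.66 ± 0.21 in hd2c-3 and 0.58 ± 0.21 in brm-1 (adjusted p 0.493 and 0.391). After heat PIF7 exceeded WT by 1.24 in brm-1 hd2c-3 (adjusted p = 6.36e-06) and 0.95 in brm-1 (adjusted p = 0.000261). It also exceeded hd2c-3 by 0.66 in brm-1 hd2c-3 (adjusted p = 0.00846), a call lost without brm-1 hd2c-3 heat replicate 3 (adjusted p = 0.0617).

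The other calls among growth regulators were scattered and near the threshold. IAA29, an auxin response repressor, differed by -0.77 with heat in WT (adjusted p = 0.0267) and by -0.89 between brm-1 hd2c-3 and WT in control (adjusted p = 0.0287). Both were lost without WT control replicate 3, the first also without WT heat replicate 2 or 3 (adjusted p 0.0638 to 0.175), and the second also without any of the brm-1 hd2c-3 control replicates 1, 2 and 3 (adjusted p 0.0612 to 0.218). HAT2, a homeodomain factor of the auxin response, differed by -0.66 with heat in brm-1 (adjusted p = 0.0156), by -0.55 in hd2c-3 (adjusted p = 0.0362) and by -0.67 between brm-1 hd2c-3 and hd2c-3 in control (adjusted p = 0.0456). The first was lost without brm-1 control replicate 3 or brm-1 heat replicate 1 (adjusted p 0.0934 and 0.138), and the other two without any 1 of their 6 arrays (adjusted p 0.056 to 0.195), that in hd2c-3 also with equal array medians or cyclic loess. RCA, the green-tissue marker, was called slightly higher with heat in WT (0.33 ± 0.10, adjusted p = 0.0351) and hd2c-3 (0.38 ± 0.10, adjusted p = 0.0118). The WT call was lost without any of WT control replicates 1, 2 and 3 or WT heat replicates 1 and 2 (adjusted p 0.065 to 0.144) and with equal array medians, and the hd2c-3 call without hd2c-3 heat replicate 3 (adjusted p = 0.0728). Its differences in brm-1 (0.28) and brm-1 hd2c-3 (0.24) were not called, and its part in the falls of the expansins was not tested.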

How the data were processed

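The authors deposited 1 log2 intensity per probe set and array for 38408 probe sets on 24 arrays. Per the submitters' processing notes, RMA and Partek were used. No versions are given, and no genome build is given in the sources used here. Of the probe sets, 16746 carry 1 gene name in the platform table (758 with several names were left out). The probe set with the highest mean over the arrays stood for each gene, giving 16552 genes. Loci and names were matched to the reference gene table of TAIR10.1, which held 16418 of them.

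All arrays entered 1 limma 3.58.1 model (R 4.3.3) with a mean per group, 16 residual and 6.25 prior degrees of freedom, and 17 two-sided contrasts, adjusted over all genes. Every called member was named, EXPA15, EXPB1 and EXLA2 in each comparison of 2 groups, and up to 4 called genes of each other list. The members, lists and comparisons were chosen with earlier results of these data known, so the higher levels of EXPA15 and EXPB1 in brm-1 control are not independent support. Alternatives were equal array medians, cyclic loess, an intensity trend in the prior, a replicate block, a filter on dim probe sets and leaving out each array. The second EXPA20 probe set was added after seeing the data. Array medians lay between 3.42 and 3.65, and the number of arrays limits the precision. The model was tested on simulated data with independent normal noise. Changes of 0.5, 1 and 2 were planted in 67, 67 and 66 of the 16552 genes. The adjustment depends on how many genes change, and 2198 were called in the real WT heat response, so recovery in the data may differ. For the WT heat response the model recovered 22.4% of changes of 0.5, 85.1% of changes of 1 and 100% of changes of 2. For the difference in heat response of brm-1 from WT it recovered 4.48%, 49.3% and 97.0%, so a difference in response that was not called may be one that 3 arrays a group cannot show. Matplotlib 3.10.9 drew the plots.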

Additional observations from a re-analysis of the deposited data

Results flagged for a closer look

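The heat response of EXLA2 differed between brm-1 hd2c-3 and WT by 1.36 ± 0.28 on the log2 scale in the test of the difference itself (limma adjusted p = 0.0124). All 3 heat arrays of brm-1 hd2c-3 lay above its control arrays, whereas heat and control arrays overlapped in WT.

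For XTH19 every heat array lay above every control array in brm-1 hd2c-3, with a difference of 0.85, and every heat array lay below every control array in hd2c-3, with a difference of -0.43. The difference between these 2 responses was not tested. The hd2c-3 response itself was not called (limma adjusted p = 0.209), and the difference of the brm-1 hd2c-3 response from that of WT was 0.92 ± 0.33 (adjusted p = 0.203). XTH19 is among the dimmest of the 31 genes. Over all 16552 genes, 2269 rose with heat without overlap in brm-1 hd2c-3, and 2630 fell without overlap in hd2c-3.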

How the results depend on the processing

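Of the 57 calls among the 31 genes, 34 remained without any single array and under each other processing in the list except the added EXPA20 probe set, and 23 were lost without at least 1 array. Equal array medians removed 10 calls, the intensity trend 4, cyclic loess 3 and the filter on dim probe sets none of the 47 it could test. None of these alternatives reversed a call. The heat response of brm-1 called 8 genes, and 4 under equal array medians, where the comparison of brm-1 hd2c-3 with hd2c-3 in control called 2 and not 4. brm-1 hd2c-3 against brm-1 in heat called 1 gene, but 2 under cyclic loess or the intensity trend and 3 with the replicate block or the filter on dim probe sets. The cause was not tested, except that the filter tests fewer genes. Without single arrays the number called was 3 to 5 in the heat response of brm-1, 0 to 2 in hd2c-3 against WT in heat, 2 to 4 in brm-1 against WT in heat, and 1 to 2 in the difference of the brm-1 hd2c-3 response from WT. For brm-1 hd2c-3 it was 1 to 3 against hd2c-3 in control, 1 to 4 against hd2c-3 in heat, 0 to 1 against brm-1 in control and 0 to 2 against brm-1 in heat. The second EXPA20 probe set, chosen after seeing the data, reversed the call in the brm-1 hd2c-3 heat response (0.92) and removed the other 5 calls of EXPA20. Same-numbered replicates of different groups correlated at -0.225 to 0.409 (median 0.03, with 23 of 84 pairs over 0.1), and different-numbered ones at a median of -0.02 (26 of 168 over 0.1). By mean correlation 14 of 24 arrays were closest to arrays of their own number, where 8 would be if the numbers meant nothing. These values lean towards pairing. The main model had no replicate block because the labels give no shared origin, so a real pairing would be ignored in it. With the replicate number as a block 56 of 57 calls were kept.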
